A study of Homo sapiens with 6 samples.

Results

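The genes described are those of respiratory complex I in HCC2814 cells, a human lung squamous cell carcinoma (LUSC) line. They were chosen by symbol: every gene of the expression table whose symbol begins with NDUF was kept, and 1 read-through transcript, which joins NDUFC2 to a neighbour, was dropped. This gave 47 of the 17448 genes listed, of which 39 carry the symbols of subunits and 8 those of assembly factors (NDUFAF). Complex I, the NADH:ubiquinone oxidoreductase of the inner mitochondrial membrane, takes electrons from NADH, passes them along a chain of iron-sulfur clusters to ubiquinone and pumps protons. Its peripheral arm, which stands in the matrix, holds the NADH-binding and the quinone-reducing modules, and its membrane arm holds the pumps. Assembly factors help to put the modules together and are not part of the finished enzyme.

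RNA was measured in 3 WT and 3 MLST8-KO samples of the line. All cells were grown in DMEM with serum. The WT cells received a non-targeting CRISPR guide and the MLST8-KO cells a guide against MLST8, a subunit shared by the kinase complexes mTORC1 and mTORC2. The sample labels give 48 to 72 hours for both guides before antibiotic selection. The study's methods give a shorter infection. The comparison asks which transcripts differ when MLST8 is lost, which the study used as a model of mTORC2 loss. The model is 1 cell line under lentiviral selection, whether as a mixed population or a clone is not given in the sources used here, and protein, respiration and mitochondrial content were not analysed here. In such bulk RNA, less RNA per cell and fewer cells with that RNA cannot be told apart.

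Estimated counts summed to between 14381673 and 15744154 per sample, and the 12951 genes that passed edgeR's filter on low counts were tested with its quasi-likelihood test, in which a gene was called at a Benjamini-Hochberg adjusted p under 0.05. MLST8 was at 874, 827 and 842 counts in WT replicates 1, 2 and 3 and at 396, 629 and 401 in the MLST8-KO replicates, a log2 difference of -0.96 that passed the threshold (edgeR) in all 6 fits that left out 1 sample. Squamous epithelial markers marked both groups (summed level 14080 to 21586 TPM, a level scaled by gene length and depth, in WT and 25994 to 28740 TPM in MLST8-KO samples), and 8 of the 11 (72.7%, against 16.3% of all genes tested) were higher in MLST8-KO samples. This count was 5 without MLST8-KO replicate 1, and 4 without WT replicate 2 or MLST8-KO replicate 2. Leukocyte, endothelial and fibroblast markers summed to 58.1 to 90.4 TPM, most of it from CD68 and COL1A1, with PTPRC, PDGFRB and CDH5 at or near 0. In this list 2 of the 5 markers tested, CD68 and PECAM1, were lower, and 0 were called without MLST8-KO replicate 1 or without WT replicate 2. Without MLST8-KO replicate 3, 0 were lower and COL1A2 was higher. MLST8-KO replicate 1 stood apart in 8 liver and intestine transcripts, which summed to 247.9 TPM in it and to 0.55 to 5.99 TPM in the other samples. All 3 of these transcripts that could be tested were called higher, and 0 were without MLST8-KO replicate 1, WT replicate 2 or WT replicate 3. Results are therefore also given without that sample.

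All 47 complex I genes passed the filter. Their transcripts were abundant: the median over the 39 subunits was 134 TPM, against 17.5 TPM over all genes tested, and 30 of the 39 subunits lay between 50 and 350 TPM (plot of TPM in each sample). The assembly factors had a median of 32.3 TPM. Since TPM takes gene length into account, levels can be set beside each other between genes.

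**Figure D1:**
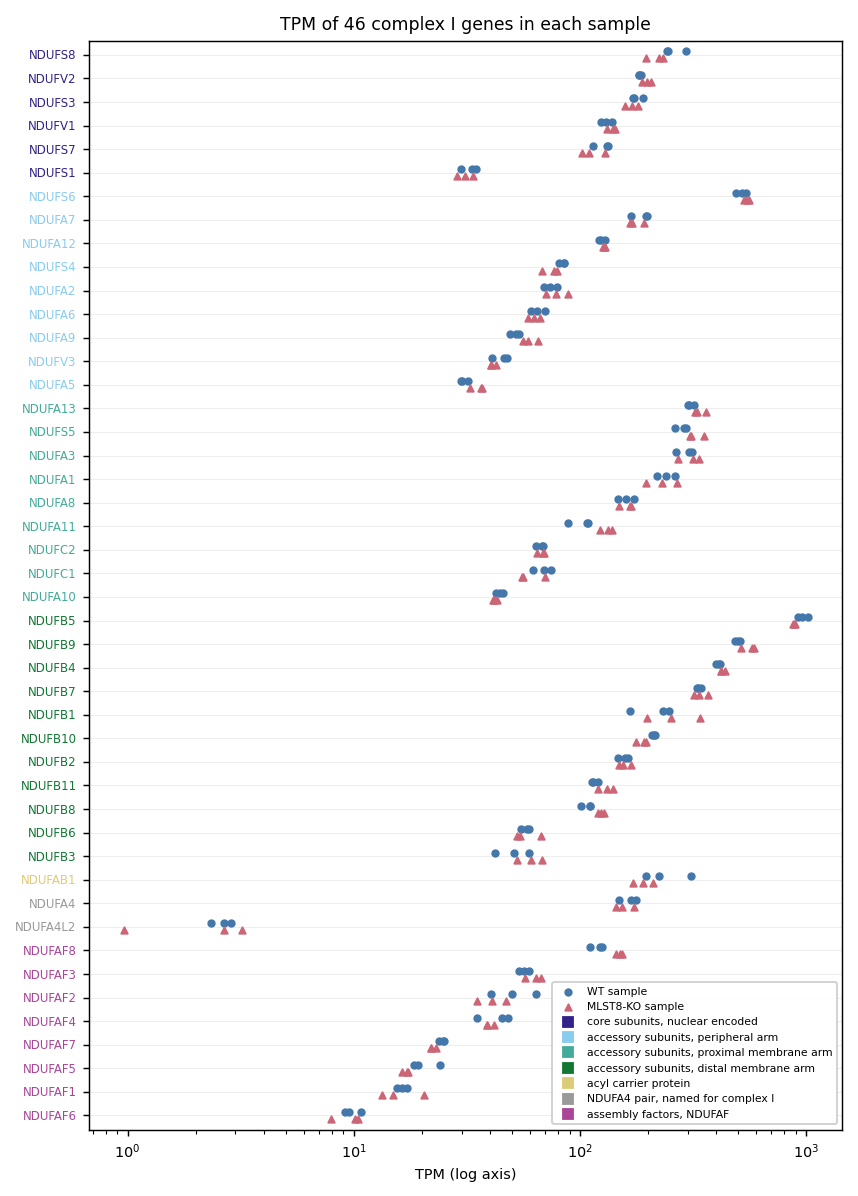
TPM (log axis) of 46 complex I genes in the 3 WT samples (blue circles) and the 3 MLST8-KO samples (red triangles), grouped by role, which the colour of the gene names gives. NDUFB5 lies at the top of the range, at 875 to 1022 TPM, and NDUFA4L2 alone lies below 5 TPM; the symbols of both groups lie close together for most genes.

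NDUFB5, an accessory subunit of the distal membrane arm, was the most abundant of the 47, at 961, 1022 and 924 TPM in WT replicates 1, 2 and 3 and at 881, 875 and 891 TPM in the MLST8-KO replicates. Its mean was 1.74 times that of the next gene and 6.89 times that of the median subunit. It alone made up 11.4% to 13.7% of the summed TPM of the 39 subunits in the 6 samples. The genes next in order were NDUFS6, a zinc-binding accessory subunit of the peripheral arm, and NDUFB9 of the distal membrane arm. NDUFS6 was at 540, 522 and 492 TPM in WT and 557, 546 and 532 TPM in MLST8-KO samples. NDUFB9 was at 509, 484 and 501 TPM in WT and 579, 517 and 591 TPM in MLST8-KO samples. The ranges of these last genes overlapped, so their order is not fixed, whereas NDUFB5 was above both in every sample.

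The lowest levels were those of NDUFA4L2, NDUFAF6 and NDUFAF1. NDUFA4L2 was at 2.33, 2.87 and 2.67 TPM in WT and 0.96, 3.19 and 2.67 TPM in MLST8-KO samples, from 8 to 27 counts a sample. NDUFAF6, an assembly factor of the quinone module, was at 10.8, 9.18 and 9.56 TPM in WT and 10.5, 7.97 and 10.1 TPM in MLST8-KO samples. NDUFAF1, which acts on the membrane arm, was at 15.6, 17.2 and 16.4 TPM in WT and 20.4, 13.3 and 14.9 TPM in MLST8-KO samples. In each of these genes the groups overlapped.

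In MLST8-KO samples, 0 of the 47 complex I genes were higher than in WT and 5 were lower by edgeR's test. Among all genes tested, 16.3% were called higher and 15.7% lower. Of the complex I genes 10.6% were lower and 0% higher. Of the subunits, 4 of 39 were lower (10.3%), and of the assembly factors 1 of 8 (12.5%). The genes that fell were NDUFS8, NDUFS4, NDUFB10, NDUFB5 and NDUFAF5. At an unadjusted p under 0.05, 1 of the complex I genes was higher and 8 were lower, against 2949 and 2866 of the 12951 genes tested. The test by DESeq2 gave 0 higher and 5 lower genes, and limma on log2(TPM + 1) gave 2 higher and 0 lower. Over all genes DESeq2 called 1858 higher and 2012 lower, and limma 2782 higher and 1134 lower.

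The differences were small throughout. The log2 fold changes of the 47 genes ran from -0.46 to 0.23, and 34 of them lay within 0.2 of 0 on the log2 scale (plot of fold changes). Their standard errors were 0.074 to 0.38, with a median of 0.095. The values leaned below 0: 34 of the 47 (72.3%) were negative, against 49.5% of all genes tested, and the median was -0.10 against 0.0045 over all genes. With upper quartile scaling 28 of the 47 were negative, and on log2(TPM + 1) with limma 22 were, with a median of 0.0087. The median was -0.09 for the subunits and -0.18 for the assembly factors.

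**Figure D2:**
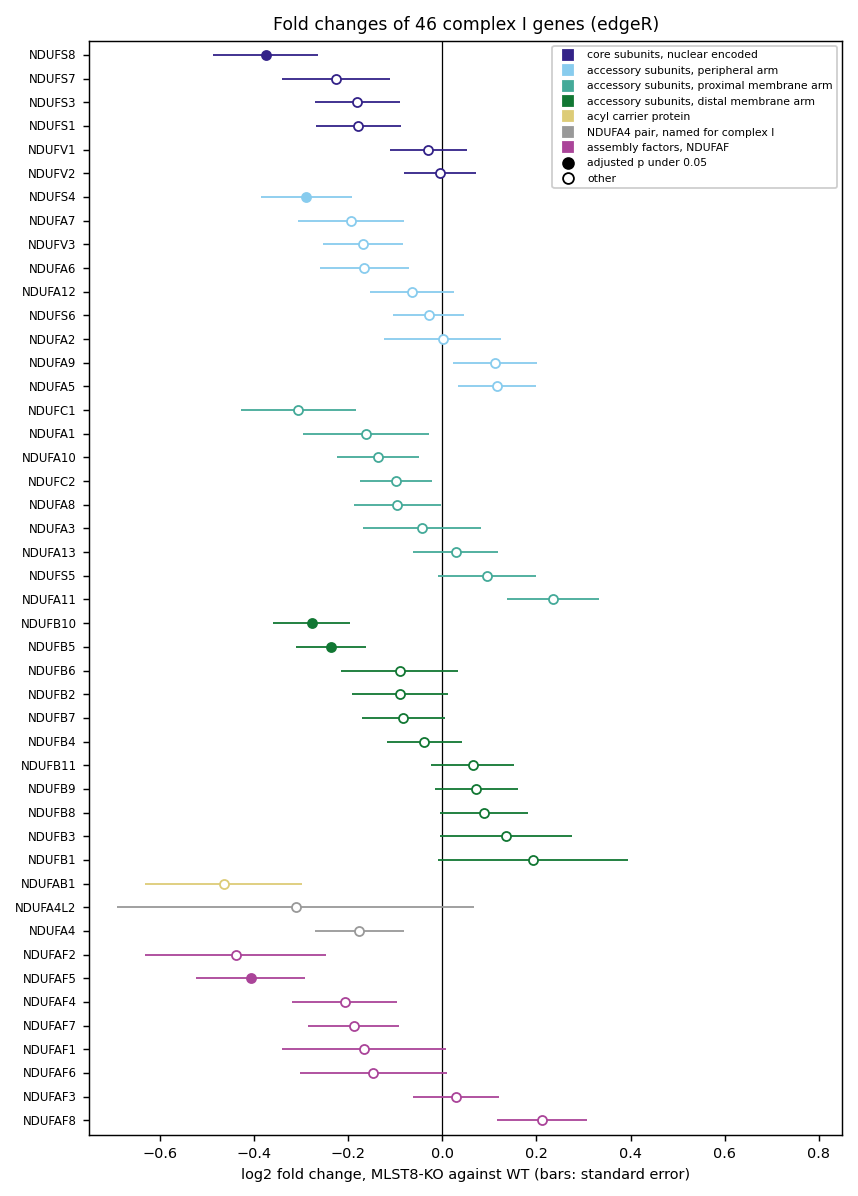
Log2 fold change (MLST8-KO against WT) of 46 complex I genes by edgeR, with bars of 1 standard error, grouped by role. Filled symbols mark the 5 genes past the threshold, all of them below 0; the values run from -0.46 (NDUFAB1) to 0.23 (NDUFA11).

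The groups overlapped in the summed level of the subunits. The 39 subunits together were at 7204, 7433 and 7285 TPM in WT and at 7695, 7186 and 7292 TPM in MLST8-KO samples (mean 7307 ± 116 and 7391 ± 269, SD, n = 3 each). On the CPM scale used for the test (counts relative to library size after TMM scaling), the same sum was 2664, 2809 and 2840 in WT and 2700, 2440 and 2605 in MLST8-KO samples (mean 2771 ± 94.1 and 2582 ± 132). The assembly factors summed to 342 ± 3.94 TPM in WT and 358 ± 12.8 TPM in MLST8-KO samples, and to 199 ± 1.91 and 183 ± 11.1 CPM, where the groups did not overlap. The sign of the difference between the groups' means thus depended on the scale for both sums. The median over all genes tested was 0.09 higher in MLST8-KO samples on log2(TPM + 1) and 0.10 higher on log2(TPM + 0.1), and 0.0045 higher in the edgeR fit.

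The 7 core subunits encoded in the nucleus carry the flavin and iron-sulfur clusters and form the catalytic part of the peripheral arm. All 7 had log2 fold changes below 0 by edgeR with TMM scaling, from -0.38 to -0.0047 with a median of -0.18. Of all genes tested, 49.5% were below 0. Of the 7 core subunits, 1 was lower past the threshold (14.3%, against 15.7% of all genes tested). NDUFV1, NDUFV2 and NDUFS1 make up the NADH-oxidising module. NDUFV1, which binds NADH and the flavin, was at 113, 107 and 105 CPM in WT and 108, 98.0 and 113 CPM in MLST8-KO samples. NDUFV2 was at 77.7, 78.9 and 83.3 CPM in WT and 83.7, 77.5 and 77.9 CPM in MLST8-KO samples. In CPM both genes overlapped between the groups, with log2 fold changes of -0.03 (standard error 0.08) and -0.0047 (standard error 0.08). In TPM every MLST8-KO sample of NDUFV2 was above every WT sample. With upper quartile scaling and with limma on log2(TPM + 1) the fold changes of NDUFV1 and NDUFV2 were above 0. NDUFS1, the largest iron-sulfur subunit, was at 48.6, 51.4 and 58.1 CPM in WT and 45.5, 48.8 and 45.3 CPM in MLST8-KO samples (log2 fold change -0.18, adjusted p = 0.152, edgeR).

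NDUFS3, NDUFS7 and NDUFS8 belong to the module that reduces ubiquinone. NDUFS8 (chromosome 11, 68030617 to 68036644, plus strand, GRCh38), which holds a pair of iron-sulfur clusters close to the quinone site, was at 86.1, 89.2 and 110.5 CPM in WT and 66.8, 73.1 and 80.4 CPM in MLST8-KO samples. Every MLST8-KO sample was below every WT sample, and WT replicate 3 was the highest of the 6. NDUFS8 fell by 0.38 on the log2 scale (standard error 0.11, adjusted p = 0.0281, edgeR), or by 22.9%. NDUFS7, which carries the last cluster of the chain, was at 42.9, 49.7 and 51.3 CPM in WT and 39.9, 36.0 and 47.2 CPM in MLST8-KO samples (log2 fold change -0.23, adjusted p = 0.152, edgeR). NDUFS3 was at 75.8, 77.9 and 88.02 CPM in WT and 76.6, 69.0 and 67.7 CPM in MLST8-KO samples (-0.18, adjusted p = 0.145, edgeR). In NDUFS7 and NDUFS3 a single MLST8-KO sample reached into the WT range. The 7 subunits of complex I that mitochondrial DNA encodes form the pumps of the membrane arm. They had no entry under their MT-ND symbols among the 17448 genes listed, so they were not analysed here.

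Of the 9 accessory subunits placed in the peripheral arm, 1 was lower (11.1%, against 15.7% of all genes tested) and 0 higher (against 16.3%). Their median was -0.06 on the log2 scale. The gene that fell was NDUFS4 (chromosome 5, 53560633 to 53683340, plus strand), which fastens the NADH-oxidising module to the rest of the arm and whose loss causes Leigh syndrome. NDUFS4 was at 23.7, 24.8 and 23.9 CPM in WT and 20.7, 20.3 and 18.3 CPM in MLST8-KO samples, without overlap. It fell by 0.29 on the log2 scale (standard error 0.10, adjusted p = 0.0446, edgeR), or by 18.1%, and lay closest to the threshold of the 5. The other 8 genes had log2 fold changes between -0.19 (NDUFA7) and 0.12 (NDUFA5). NDUFS6, the most abundant of them, differed by -0.03 (standard error 0.07).

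None of the 9 accessory subunits of the proximal membrane arm passed by edgeR (0%, against 16.3% higher and 15.7% lower over all genes). Their median log2 fold change was -0.10. At an unadjusted p under 0.05, 1 was higher and 1 lower, against 2949 and 2866 of the 12951 genes tested. The higher one was NDUFA11, a membrane subunit needed for assembly of the complex, at 39.9, 41.3 and 35.6 CPM in WT and 46.8, 41.3 and 49.4 CPM in MLST8-KO samples. Its groups did not overlap, but WT replicate 2 and MLST8-KO replicate 2 lay next to each other, at 41.25 and 41.32 CPM. On the log2 scale NDUFA11 differed by 0.23 (standard error 0.10) and did not pass (adjusted p = 0.0885, edgeR). The lower one was NDUFC1, with -0.31 (standard error 0.12, adjusted p = 0.0783, edgeR).

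Of the 11 accessory subunits of the distal membrane arm, 2 were lower (18.2%, against 15.7% of all genes tested) and 0 higher (against 16.3%). Their median was -0.04 on the log2 scale. NDUFB10 (chromosome 16, 1959508 to 1961975, plus strand), which reaches into the intermembrane space, was at 61.0, 65.6 and 66.7 CPM in WT and 50.8, 52.4 and 56.2 CPM in MLST8-KO samples. It fell by 0.28 on the log2 scale (standard error 0.08, adjusted p = 0.0269, edgeR), or by 17.5%, without overlap. NDUFB5 (chromosome 3, 179604690 to 179627647, plus strand) was at 457, 493 and 459 CPM in WT and 402, 383 and 411 CPM in MLST8-KO samples. This most abundant complex I transcript fell by 0.24 (standard error 0.07, adjusted p = 0.0344, edgeR), or by 15.1%, again without overlap. Without NDUFB5 the other subunits summed to 6338 ± 86.3 TPM in WT and 6508 ± 269 TPM in MLST8-KO samples. The genome annotation lists 2 pseudogenes each for NDUFB5 and NDUFB10, and reads that such copies share could have been placed on either.

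The other genes of the distal arm moved in both directions. NDUFB1 had the widest error of the arm, at 32.2, 37.9 and 25.5 CPM in WT and 48.8, 33.4 and 27.3 CPM in MLST8-KO samples. Its difference of 0.19 on the log2 scale (standard error 0.20) was above 0 in every fit that left out another sample, and was -0.07 without MLST8-KO replicate 1. NDUFB9 was at 156, 153 and 163 CPM in WT and 173, 147 and 177 CPM in MLST8-KO samples (0.07, standard error 0.09), with overlap. In TPM every MLST8-KO sample of NDUFB9 was above every WT sample.

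**Figure D3:**
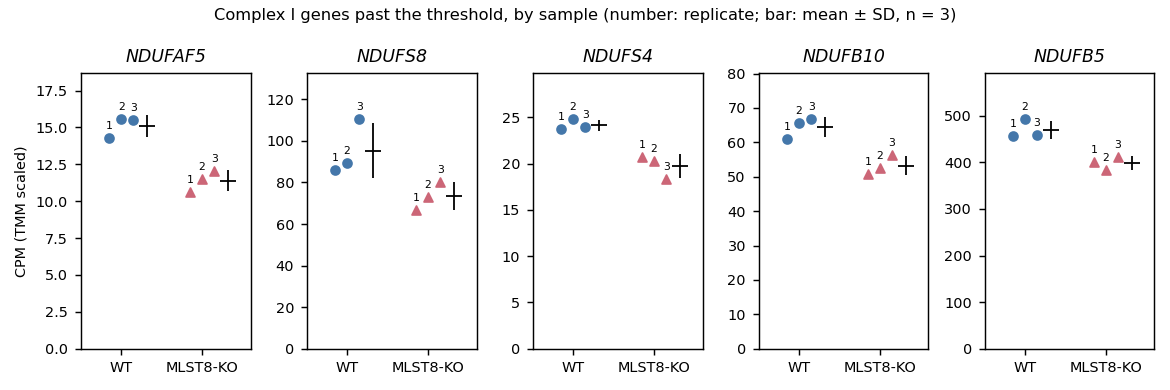
CPM (TMM scaled, axes from 0) of the 5 complex I genes past the threshold in each sample, with the replicate number above each symbol and the mean ± SD (n = 3) beside it. In each gene the 3 MLST8-KO samples lie below the 3 WT samples, and the falls of 15.1% to 24.6% are small against the level itself.

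NDUFAB1, the mitochondrial acyl carrier protein, is present in complex I and also works in mitochondrial fatty acid synthesis and in iron-sulfur cluster assembly. Its value was the most negative of the 47, at -0.46 on the log2 scale (standard error 0.17), and did not pass the threshold (adjusted p = 0.0557, edgeR). It was at 54.7, 65.1 and 92.1 CPM in WT and 57.5, 49.0 and 46.9 CPM in MLST8-KO samples. WT replicate 3 was far above the other samples, and WT replicate 1 lay below MLST8-KO replicate 1. DESeq2, and edgeR without the filter on low counts, called NDUFAB1 lower and did not call NDUFS4.

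NDUFA4 and NDUFA4L2 are named for complex I, but NDUFA4 is now counted as a subunit of cytochrome c oxidase, and NDUFA4L2 is a related protein known as a target of hypoxia-inducible factor. NDUFA4 was at 158, 186 and 185 CPM in WT and 172, 148 and 148 CPM in MLST8-KO samples (-0.18 on the log2 scale, standard error 0.09, adjusted p = 0.175, edgeR). NDUFA4L2 was at 20, 24 and 22 counts in WT and 8, 27 and 23 counts in MLST8-KO samples (-0.31, standard error 0.38). In TPM, NDUFA4 was 65.7 times as abundant as NDUFA4L2. The fold change of NDUFA4L2 turned to 0.05 without MLST8-KO replicate 1, which held its lowest count.

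Among the 8 assembly factors, NDUFAF5 (chromosome 20, 13784950 to 13821582, plus strand) was lower. NDUFAF5 is a hydroxylase that modifies NDUFS7 early in assembly. It was at 14.3, 15.6 and 15.5 CPM in WT and 10.6, 11.5 and 12.04 CPM in MLST8-KO samples, without overlap. It fell by 0.41 on the log2 scale (standard error 0.12, adjusted p = 0.0242, edgeR), or by 24.6%, the largest fall of the 5. NDUFAF8, the partner protein that stabilises NDUFAF5, was at 27.4, 25.6 and 29.003 CPM in WT and 33.4, 29.3 and 32.3 CPM in MLST8-KO samples. It did not overlap either, but lay above WT, by 0.21 on the log2 scale (standard error 0.10), without passing the threshold (adjusted p = 0.114, edgeR).

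NDUFAF2, a late assembly factor related to the subunit NDUFA12, was at 12.4, 15.9 and 20.7 CPM in WT and 14.0, 9.945 and 12.2 CPM in MLST8-KO samples. Its value of -0.44 on the log2 scale was larger in size than that of NDUFAF5, but so was its standard error of 0.19 (adjusted p = 0.102, edgeR), and the groups overlapped. NDUFAF4 and NDUFAF7, which act on the quinone module, had log2 fold changes of -0.21 and -0.19, and NDUFAF3, the partner of NDUFAF4, one of 0.03. NDUFAF1 was at 9.88, 11.6 and 10.9 CPM in WT and 12.1, 7.60 and 9.22 CPM in MLST8-KO samples (-0.17, standard error 0.17). NDUFAF6 was at 10.6, 8.61 and 9.596 CPM in WT and 9.48, 7.23 and 9.35 CPM in MLST8-KO samples (-0.15, standard error 0.16).

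Groups without overlap were no more frequent than among all genes. In CPM, every MLST8-KO sample lay above every WT sample in 2 of the 47 genes (4.26%, against 24.8% of all genes tested) and below in 9 (19.1%, against 24.2%). In TPM, 11 genes lay above (23.4%, against 32.8%) and 6 below (12.8%, against 15.1%).

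The 5 lower calls rested on the samples used. Without WT replicate 2, MLST8-KO replicate 1 or MLST8-KO replicate 2, 0 of the 47 genes passed the threshold by edgeR (plot of the settings). Without WT replicate 1, 10 of the 47 were lower, beside 2651 lower of all 13102 genes tested in that fit. Without WT replicate 3 or MLST8-KO replicate 3 there were 3 lower genes, beside 1559 and 1497 lower over all genes. The calls over all genes moved with the sample left out. They dropped from 2116 higher and 2030 lower to 979 and 850 without MLST8-KO replicate 1, and to 971 and 1044 without WT replicate 2. Without MLST8-KO replicate 2 they were 1136 and 1091, and without WT replicate 1 they rose to 2692 and 2651. NDUFAF5 passed in 3 of the 6 fits that left out 1 sample, NDUFS8, NDUFB10 and NDUFB5 in 2 and NDUFS4 in 1, and the fold change of each stayed below 0 in all 6. The log2 fold change of NDUFS8 was the most variable of the 5 in these fits, at -0.45 to -0.26.

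The calls also differed between scales. With upper quartile scaling 2 of the 47 genes, NDUFS8 and NDUFAF5, were lower, and with limma on log2(TPM + 1) none was lower while NDUFA11 and NDUFAF8 were higher. Over all 12951 genes tested, upper quartile scaling called 2546 higher and 1559 lower, and limma 2782 higher and 1134 lower. Of the calls over all genes, 51% were higher in the edgeR fit, against 62% with upper quartile scaling and 71% with limma on log2(TPM + 1). The TPM of NDUFA11 was 108, 109 and 88.5 in WT and 134, 123 and 139 in MLST8-KO samples (log2 fold change 0.37, adjusted p = 0.0182, limma on log2(TPM + 1)). That of NDUFAF8 was 125, 110.3 and 123 in WT and 153, 144 and 150.4 in MLST8-KO samples (0.32, adjusted p = 0.0137, limma). Relative to the median of all genes on that scale, the changes were 0.28 and 0.23. In every setting the median of the complex I genes lay below the median of all genes, by 0.04 to 0.13 on the log2 scale. All settings draw on the same 6 samples, so they are not independent. Over replicates, the median deviation of the complex I genes from their group means had an SD of 0.065 (log2 CPM).

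**Figure D4:**
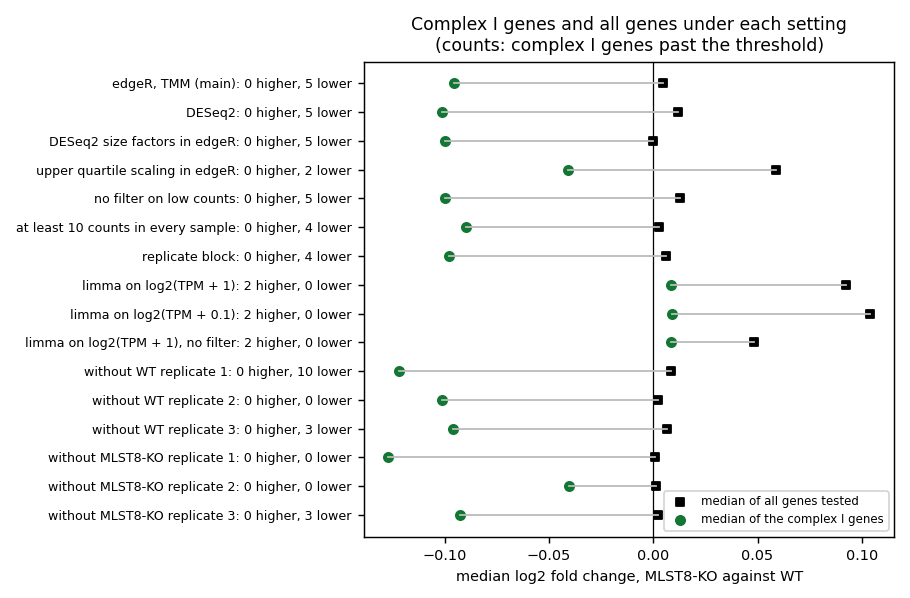
Median log2 fold change (MLST8-KO against WT) of the complex I genes (green circles) and of all genes tested (black squares) under each setting, with the number of complex I genes past the threshold after its name. The green circle lies left of the black square in every setting, while the number of lower genes runs from 0 to 10.

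Reads of some members cannot be placed with certainty. The annotation lists 59 NDUF pseudogenes, spread over 19 of the 47 genes, and 18 of the 47 share exon bases with another gene of the table, 15 of them with a gene on the opposite strand. Whether the counting used strand is not given in the sources used here. None of NDUFS8, NDUFS4, NDUFB10, NDUFB5 and NDUFAF5 shares exon bases with another gene of the table.

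Promoter sequences are shown for the lower genes, since these moved in the same direction. Of the 47 genes 39 had an entry among the RefSeq promoters (GRCh38.p14), and NDUFB5 had none. Each stretch runs 5′ to 3′ on the gene's strand from 110 bases before to 10 bases after the annotated start, and capitals mark a match to a motif of NRF1 or SP1, regulators long tied to genes of the respiratory chain. The positions are chr11:68030571-68030690 for NDUFS8, chr5:53560529-53560648 for NDUFS4, chr16:1959428-1959547 for NDUFB10 and chr20:13784918-13785037 for NDUFAF5.
NDUFS8: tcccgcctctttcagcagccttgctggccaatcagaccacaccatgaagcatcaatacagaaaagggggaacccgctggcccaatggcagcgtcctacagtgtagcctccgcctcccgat
NDUFS4: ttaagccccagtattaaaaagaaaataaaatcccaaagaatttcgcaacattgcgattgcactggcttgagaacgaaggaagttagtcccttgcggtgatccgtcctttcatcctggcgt
NDUFB10: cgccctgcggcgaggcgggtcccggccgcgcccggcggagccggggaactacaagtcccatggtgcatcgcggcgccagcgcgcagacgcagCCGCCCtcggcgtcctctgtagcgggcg
NDUFAF5: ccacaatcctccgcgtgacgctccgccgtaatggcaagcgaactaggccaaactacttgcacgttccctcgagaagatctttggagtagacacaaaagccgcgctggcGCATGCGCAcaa

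No motif searched was found in more than 1 of the 4 promoters shown. 4 motifs were sought on both strands of the 300 bases from 250 before to 50 after each start, and none of the motifs contains another. The NRF1 motif TGCGCATGC was in 6 of the 39 promoters (15.4%), NDUFAF5 among them, and in 1.88% of the promoters of all 27305 genes. The YY1 motif AAGATGGCG was in 7 (17.9%, against 2.14%), NDUFS4 among them, where it lies beyond the printed stretch. The ETS motif CCGGAAG, which GABPA binds, was in 7 (17.9%, against 12.2%), and the SP1 motif GGGCGG in 25 (64.1%, against 48.3%), NDUFB10 among them. NDUFS8 held none of these letters in its window. The shares are descriptions of sequence and say nothing of whether a factor was bound in these cells.

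Complex I needs more assembly factors than those named NDUFAF, and 11 of these were measured, of which 1 was higher (9.09%, against 16.3% of all genes tested) and 3 were lower (27.3%, against 15.7%), with the median at -0.17 on the log2 scale. Several of them build the membrane arm together with NDUFAF1. Within that group, ACAD9 rose by 0.58 (standard error 0.09, adjusted p = 0.00369, edgeR), from 19.7, 17.2 and 17.2 TPM in WT to 29.1, 31.6 and 26.9 TPM in MLST8-KO samples. TMEM186 and COA1 were lower, with log2 fold changes of -0.72 and -0.37, and ECSIT, TIMMDC1 and TMEM126B did not pass the threshold. TMEM70, which also serves assembly of ATP synthase, was lower (-0.65), at 32.6, 34.6 and 34.3 TPM in WT and 25.0, 21.1 and 23.5 TPM in MLST8-KO samples. The log2 fold changes of ACAD9, TMEM186 and TMEM70 were larger in size than that of any of the 47 genes, and in both directions. ACAD9, COA1 and TMEM70 passed in all 6 fits that left out 1 sample, and TMEM186 in 3. Without MLST8-KO replicate 1 the count was 1 higher and 2 lower (COA1 and TMEM70).

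**Figure D5:**
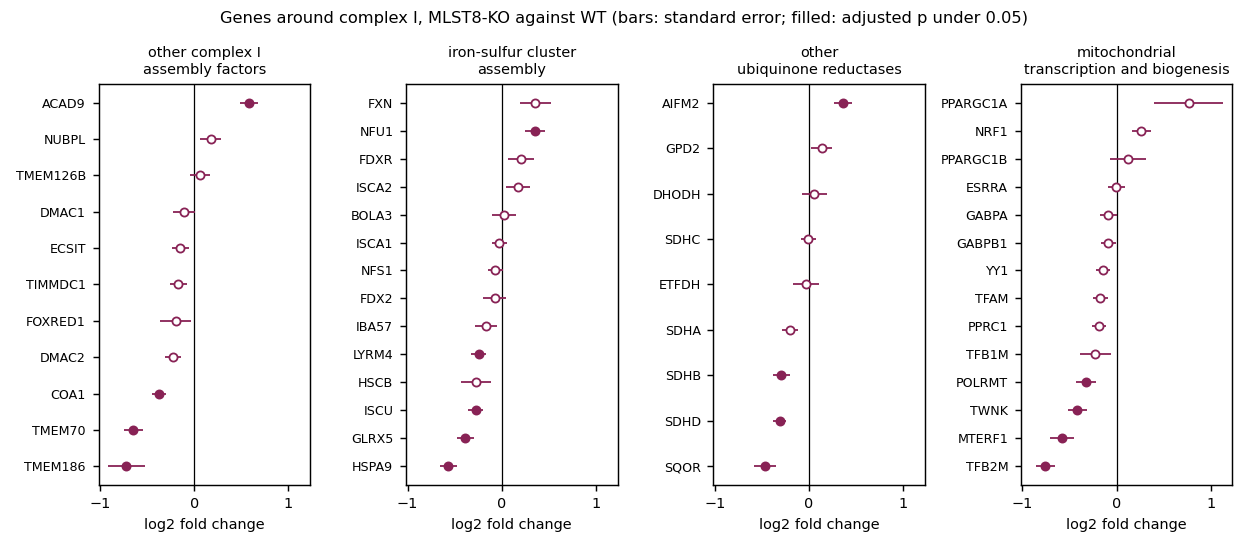
Log2 fold change (MLST8-KO against WT, edgeR) of genes that assemble complex I, supply its iron-sulfur clusters, share its electron acceptor or serve mitochondrial transcription and biogenesis, with bars of 1 standard error. Filled symbols mark genes past the threshold, which include ACAD9 at 0.58 and TFB2M at -0.76.

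Of 14 genes of mitochondrial iron-sulfur cluster assembly, which furnish the clusters of the core subunits, 1 was higher (7.14%) and 4 were lower (28.6%), against 16.3% and 15.7% of all genes tested (median -0.07). Limma on log2(TPM + 1) called 1 higher (NFU1) and 2 lower (GLRX5 and HSPA9), with the median at 0.03. HSPA9, the mitochondrial chaperone that releases clusters from their scaffold, fell by 0.57, from 404, 447 and 492 TPM in WT to 324, 340 and 315 TPM in MLST8-KO samples (adjusted p = 0.00362, edgeR). GLRX5, which passes clusters on, was lower (-0.39), as were the scaffold ISCU (-0.28) and LYRM4, a partner of the cysteine desulfurase (-0.25). NFU1, which delivers clusters to target enzymes, rose by 0.35. Without MLST8-KO replicate 1 the count was 0 higher and 2 lower (GLRX5 and HSPA9), as it was without WT replicate 2, and without MLST8-KO replicate 2 it was 1 higher and 1 lower. HSPA9 passed in all 6 fits that left out 1 sample, GLRX5 in 5, NFU1 in 3, and ISCU and LYRM4 in 2 each.

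Other enzymes that hand electrons to ubiquinone were measured for comparison. Of 9 tested, 1 was higher (11.1%) and 3 were lower (33.3%), against 16.3% and 15.7% of all genes tested (median -0.03). With upper quartile scaling SDHB was not called, and limma on log2(TPM + 1) called 1 higher (AIFM2) and 1 lower (SQOR). SDHB and SDHD, subunits of complex II, were lower (-0.30 and -0.31), as was SQOR, the sulfide oxidising enzyme (-0.47). AIFM2, which reduces ubiquinone outside the respiratory chain, rose by 0.36. Without MLST8-KO replicate 1 the count was 0 higher and 2 lower (SDHD and SQOR), without MLST8-KO replicate 2 it was 0 higher and 1 lower, and without WT replicate 2 it was 1 higher and 0 lower. SDHD passed in 5 of the 6 fits that left out 1 sample, SQOR and AIFM2 in 4 and SDHB in 2.

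Among 14 genes of mitochondrial transcription and biogenesis, 0 were higher and 4 lower (0% and 28.6%, against 16.3% and 15.7% of all genes tested, median -0.16). At an unadjusted p under 0.05, 1 was higher and 5 were lower, against 2949 and 2866 of the 12951 genes tested. TFB2M, the transcription factor that opens mitochondrial promoters, fell by 0.76, from 111, 115 and 128 TPM in WT to 68.4, 76.0 and 81.0 TPM in MLST8-KO samples (adjusted p = 0.00281, edgeR). MTERF1, a mitochondrial terminator protein, was lower (-0.58), as were the helicase TWNK (-0.42) and the mitochondrial RNA polymerase POLRMT (-0.33). The regulators of nuclear respiratory genes did not pass the threshold by edgeR with TMM scaling, with NRF1 at 0.26 (adjusted p = 0.072), GABPA at -0.09 and YY1 at -0.14. With upper quartile scaling edgeR called NRF1 higher, and MTERF1, TFB2M and TWNK lower. On log2(TPM + 1), limma called NRF1 higher and TFB2M and MTERF1 lower, and DESeq2 called 0 higher and the same 4 genes lower. Without MLST8-KO replicate 1 the edgeR count was 0 higher and 3 lower, and without MLST8-KO replicate 2 it was 0 higher and 2 lower. TFB2M and MTERF1 passed in all 6 fits that left out 1 sample, TWNK in 5 and POLRMT in 2.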

How the data were processed

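RNA-seq libraries made by poly(A) selection from HCC2814 cells covered 3 WT and 3 MLST8-KO samples, assigned to groups by their labels, which describe the replicates as independent experiments. Per the submitters' processing notes and the study's methods, the authors removed poor and adapter reads, used HISAT for alignment to the GRCh38.p12 genome and Bowtie2 to assign reads to reference genes; versions are not given in the sources used here. The authors deposited estimated counts per gene, not normalized, and TPM, which the authors scaled by gene length and depth. Their FPKM values were not used, and a further deposited table of their own comparison (its q-values, p-values and log2 fold changes) was not used. Of the estimated counts, 12.4% were not whole, and they were rounded. Replicates of a group differed by more than sampling noise (chi-square per gene 6.77 to 26.2). The widest gap was between WT replicates 1 and 3 (26.2). MLST8-KO replicate 1 was at 6.93 and 6.77 from MLST8-KO replicates 2 and 3.

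edgeR 4.0.16 in R 4.3.3 (filterByExpr, TMM scaling, quasi-likelihood test) compared the groups over 12951 of 17448 genes, with Benjamini-Hochberg adjustment over all genes tested and a threshold of 0.05, and was tested on simulated data. Alternatives were DESeq2 1.42.0, edgeR with upper quartile scaling or with the size factors of DESeq2, testing without a filter, requiring 10 counts in each of the 6 samples, a fit with a replicate block, limma 3.58.1 on log2 of the deposited TPM plus a pseudocount of 1 or 0.1, and leaving out each sample in turn. Members and lists were chosen with earlier results of these data known. Values in each sample are given for members past the threshold, the core subunits, NDUFA4 and NDUFA4L2, the 3 highest and 3 lowest by TPM, and the 3 largest rises and falls that did not pass. 1 complex I gene is not reported here on its own and is counted with the 47. Genes of other lists are named where they passed, at most 4 a list and direction by size, and others are named for their role. NDUFC1, NDUFA5, NDUFA7 and 3 assembly factors were named after their values were seen. Gene coordinates, pseudogenes and exon overlaps are those of GENCODE release 29 (GRCh38.p12), and promoters those of RefSeq (GRCh38.p14).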

Additional observations from a re-analysis of the deposited data

How the results depend on the processing

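Depth was at least 14381673 counts. NDUFA4L2 had the fewest counts of the complex I genes, at 8 to 27 a sample. NDUFAF6 had 117 to 160 and NDUFAF1 123 to 187, with standard errors of 0.16 and 0.17 against a median of 0.095. With 3 samples a group, differences of the size seen here lay near the threshold. Leaving out 1 sample moved the lower subunits from 4 to between 0 and 8, the lower assembly factors from 1 to between 0 and 2, and the calls over all genes to between 971 and 2692 higher and between 850 and 2651 lower. Upper quartile scaling left 1 lower subunit. Limma called 1 subunit and 1 assembly factor higher, and 0 subunits and 0 assembly factors lower. This held on log2(TPM + 1), on log2(TPM + 0.1) and on log2(TPM + 1) without a filter. In that order, the calls over all genes were 2782, 2764 and 2066 higher and 1134, 1132 and 821 lower. The cause of the difference from the edgeR fit was not tested.

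Some log2 fold changes changed sign. With upper quartile scaling NDUFS6 was at 0.0258, NDUFV1 at 0.0244 and NDUFV2 at 0.0507. On log2(TPM + 1), with and without the filter, these genes were at 0.0739, 0.0757 and 0.0992, and on log2(TPM + 0.1) at 0.0740, 0.0762 and 0.0996. On leaving out 1 sample NDUFV1 ranged from -0.0766 to 0.0247, NDUFV2 from -0.0412 to 0.0235, NDUFA4L2 from -0.606 to 0.0477 and NDUFB1 from -0.0712 to 0.364. The same subunits and assembly factors were called with DESeq2's size factors in edgeR.

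The fit with a replicate block called 3 subunits and 1 assembly factor lower and 0 higher, NDUFS4 losing its call, with 2261 higher and 2157 lower over all genes. The deviations of same-numbered samples correlated weakly (0.105, 0.0565 and 0.14), though each sample correlated best with its own number. The numbers were not treated as pairs.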

Other observations

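Several complex I genes lie start to start with another gene. For 20 of the 47, a protein-coding gene that was tested starts on the opposite strand within 1000 bp, and these 20 neighbours were described beside their complex I gene. Of the neighbours 6 were lower (30%, against 15.7% of all genes tested) and 1 was higher (against 16.3%). Log2 fold changes below 0 were found in 14 of the 20, against 49.5% of all genes tested. The neighbours were chosen by position, without regard to their values. NDUFB5 starts 36 bp from MRPL47, which encodes a protein of the mitochondrial ribosome, and both were lower by nearly the same amount (-0.24 and -0.24, adjusted p = 0.0344 and 0.0354, edgeR). NDUFAF5 starts 64 bp from ESF1, a gene of ribosomal RNA processing, and both were lower (-0.41 and -0.50). These were the only pairs in which both genes passed the threshold by edgeR. NDUFB5 passed in 2 of the 6 fits that left out 1 sample, and NDUFAF5 in 3. None of the 20 neighbours was followed in those fits, so their counts and values rest on the fit of all 6 samples.

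In each of the other pairs at most 1 gene passed the threshold by edgeR. MRPL36, another gene of the mitochondrial ribosome, lies 34 bp from NDUFS6 and was lower (-0.32, adjusted p = 0.0196, edgeR), while NDUFS6 differed by -0.03. CEBPZ was lower beside NDUFAF7 (-0.27), FAM126B beside NDUFB3 (-0.60) and TATDN1 beside NDUFB9 (-0.35), where the complex I genes did not pass. CEBPZ, FAM126B and TATDN1 share exon bases with their neighbours on the opposite strand, so reads of the pair may have been assigned to either. CCNE2, which encodes cyclin E2, was higher (0.75, adjusted p = 0.0359, edgeR) and starts 911 bp from NDUFAF6 (-0.15).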
